A study of Saccharomyces cerevisiae with 83 samples.

Results

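The mRNAs described here encode the proteins of the small (40S) subunit of the cytosolic ribosome of Saccharomyces cerevisiae. They were chosen by name, as the mature mRNA entries whose locus carries a standard name of RPS followed by a digit. The rule found 56 mRNAs among 6952 transcript entries. They encode 32 proteins, 8 of them from a single gene and 24 from a pair of paralogous genes named A and B. The genes lie on 14 chromosomes, and 44 of the 56 also had a separate entry for their unspliced pre-mRNA.

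The RPS proteins assemble on the 18S rRNA into the subunit that holds the mRNA and reads its codons. Their genes are transcribed at high rates as one regulon, together with the RPL genes of the large subunit, under Rap1, Fhl1, Ifh1 and Sfp1. In yeast a large part of all splicing serves ribosomal protein genes, because introns are otherwise rare. Upf1 is an RNA helicase which, with Upf2 (gene NMD2) and Upf3, carries out nonsense-mediated decay, the removal of mRNAs on which translation ends early. Intron-containing transcripts that reach the ribosome unspliced are known substrates of this decay.

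The series asked which ribosomes Upf1, Upf2 and Upf3 sit on, by sequencing the RNA fragments that ribosomes shield from nuclease (footprints). Each of 83 libraries held the RNA of a lysate (30 libraries), the footprints of all its 80S ribosomes (total, 30) or those of ribosomes pulled down with an anti-FLAG gel (IP, 23). An IP of an untagged strain was not analysed here, so each IP is compared with the total footprints of its own lysates. All 9 strains were of W303 background, and every tagged protein came from a plasmid in a strain whose own gene was disrupted. In the experiment with N-terminal tags (N, 2 replicates) the wild type HFY114 carried the empty YEplac112 (WT-N). FLAG-Upf1 was upf1::HIS3 with pG1-FLAG-UPF1. FLAG-Upf2 was nmd2::HIS3 with YEplac112-FLAG-UPF2, and FLAG-Upf3 was upf3::HIS3 with YEplac195-TPI-FLAG-UPF3. The fifth N strain, called the triple strain here, was upf1::HIS3 with pG1-FLAG-UPF1, pRS425-UPF2 and YEplac195-TPI-UPF3, and in it Upf1 alone was tagged. WT-N and the 3 single-plasmid strains were harvested with cycloheximide (CHX, 100 µg/ml), which halts elongating ribosomes, and without it; the triple strain was harvested with it alone. In the experiment with C-terminal tags (C, 3 replicates, all with CHX) HFY114 carried pRS425 (WT-C). Upf1-FLAG was upf1::HIS3 with pRS425-UPF1-FLAG, and DE572AA-FLAG was upf1::HIS3 with pRS425-DE572AA-FLAG, a Upf1 altered in the motif that hydrolyses ATP. The strain labelled upf2Δ (HFY467) was nmd2::HIS3, upf1::URA3 with pRS425-UPF1-FLAG. Replicates were separate transformants, rRNA was depleted with Ribo-Zero Gold in N and QIAseq FastSelect in C, and levels are not compared between the experiments.

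RNA libraries held 49079265 to 164141441 counts. Footprint libraries were far smaller. Main-class footprint totals, meaning 27-32 nt with CHX and 20-32 nt without, were 213689 to 3020880 in the C totals, 275418 to 1419205 in the C IPs, 107334 to 935202 in the N totals and 66971 to 1470361 in the N IPs. Levels are given as CPM, counts scaled to a library's own total. UPF1 RNA (listed as NAM7) had a mean of 383 CPM in WT-C and 23500 in Upf1-FLAG, and means of 11500 to 31800 in the other groups with a UPF1 plasmid, against 300 to 409 in WT-N, FLAG-Upf2 and FLAG-Upf3. NMD2 RNA went against the label of the strain called upf2Δ, at a mean of 1170 CPM against 197 in WT-C. MF(ALPHA)1, the pheromone gene of alpha cells, had a mean of 512 CPM in that strain and 583 and 729 in FLAG-Upf2, and at most 0.549 in every other group, while MFA1, that of a cells, was under 1 CPM in those strains and 10.4 to 45.6 elsewhere. Both nmd2::HIS3 strains thus differed from their controls in mating-type genes too, whose part in the results was not tested. In whole cultures fewer cells with a transcript and less of it per cell cannot be told apart.

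RPS mRNAs were abundant. In WT-C the RNA level per length, in FPKM (fragments per kilobase, scaled to library size), reached 5530 over the 56 members, with a median of 1872, against a median of 37.8 over all mRNAs. The total footprints ran from 172.9 to 11130 FPKM, with a median of 1651 against 13.2. RPS mRNAs were also short, with a median effective length of 467 nt against 1215 nt. RPS15, a head protein near the decoding site (YOL040C, chromosome XV, 253149 to 253577 in the R64 assembly), had the highest RNA level per length, 5530 ± 94.8 FPKM (SD, n = 3). RPS31, translated as a fusion with ubiquitin (YLR167W, XII, 498947 to 499405), followed at 4708 ± 133 FPKM. RPS4A led the footprints at 11130 ± 3679 FPKM, with replicates that spread widely.

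The paralogs of a protein share most of their sequence, and a pre-mRNA shares its exons with the mRNA. RSEM, the counting tool in the submitters' notes, divides such shared reads by estimate, so a value of 1 paralog or 1 splice form is less certain than the sum. The estimated split between paralogs ranged widely and moved with the kind of library. In WT-C RNA the A copy took 8.21% ± 1.34 (SD, n = 3) of RPS27 and 9.11% ± 0.38 of RPS21, which were among the 3 most unequal pairs; for RPS27A, 83.1 to 88.2% of the counts were given to the pre-mRNA entry. RPS4 at 50.8% ± 0.38 and RPS19 at 51.9% ± 0.36 were among the 3 most equal. In the total footprints of the same strain RPS24A took 86.7% ± 1.3 of its pair against 47.1% in RNA, and RPS22A 39.3% ± 2.65 against 84.4% in RNA, both among the 3 largest shifts. RPS14, whose protein sits on the platform, kept its split at 85.9% A in RNA and 85.0% in footprints.

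In the main length class, RPS mRNAs together made up a smaller share of the IP footprints than of the total footprints in every tagged strain. In WT-C they took 5.64% ± 0.14 (SD, n = 3) of RNA counts and 9.33% ± 0.94 of total footprint counts. For Upf1-FLAG, DE572AA-FLAG and the strain labelled upf2Δ the RNA share was 4.79% ± 0.30, 4.48% ± 0.18 and 4.56% ± 0.26, and the total share was 7.56%, 7.36% and 7.08%. The 9 IP libraries of those strains lay between 3.77 and 4.44%. In the N experiment the total libraries with CHX held 5.9 to 7.05% and the IP libraries 2.48 to 3.3%. Without CHX the totals held 5.89 to 7.88% and the IPs 2.11 to 2.93%. The ranges of IP and total of the main class did not overlap in either experiment. At 37-43 nt the order was the reverse in the strains of N that had this class in both. There FLAG-Upf1 held 6.1 to 6.92% in the IPs and 3.44 to 3.76% in the totals. The triple strain held 4.56 to 4.78% and 1.78 to 2.08%.

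**Figure D1:**
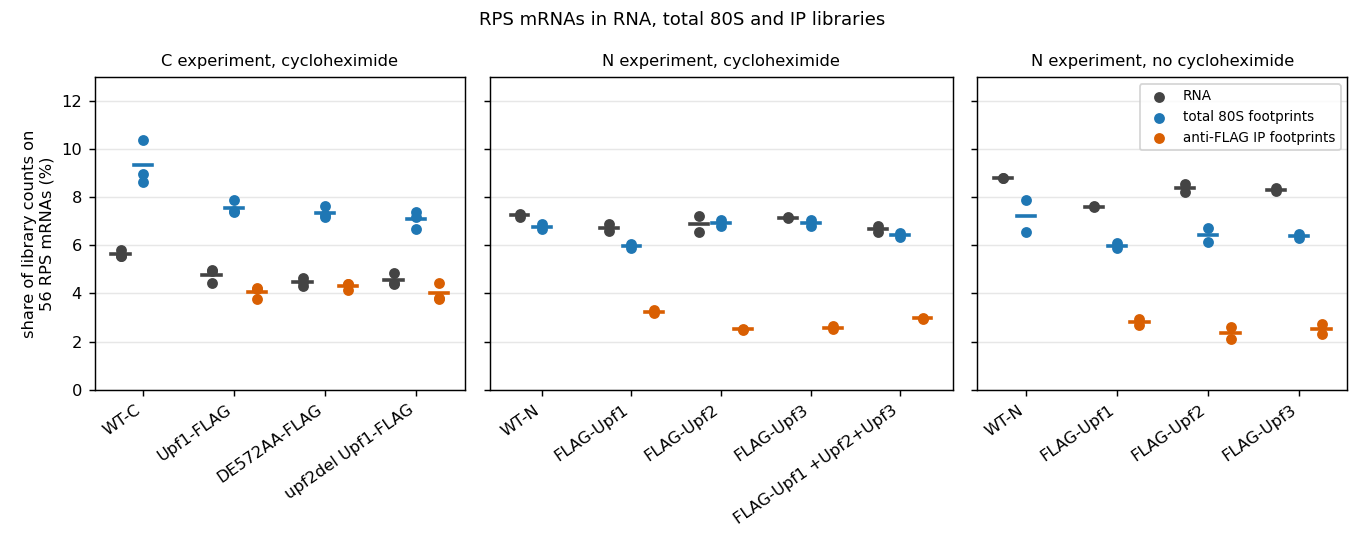
Share of each library's counts on the 56 RPS mRNAs, in percent, for RNA, total 80S footprints and anti-FLAG IP footprints of the main length class, by strain. Points are libraries and bars are means; upf2del is the strain labelled upf2Δ, and all IP points lie below the total points of their panel.

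RPS RNA was lower in all 3 tagged C strains than in WT-C, most broadly in DE572AA-FLAG. Of the 56 mRNAs, 49 fell in DE572AA-FLAG, 43 in the strain labelled upf2Δ and 21 in Upf1-FLAG (edgeR quasi-likelihood test, Benjamini-Hochberg adjusted p under 0.05), and none rose. Over all 6739 transcripts tested, 27.6%, 27.9% and 12.8% fell in those comparisons and 26.3%, 26.0% and 17.5% rose. The member median was -0.41, -0.36 and -0.18 on the log2 scale, and the median of all transcripts was within 0.02 of 0. The 21 that fell in Upf1-FLAG fell in all 3, and 42 fell in both of the other strains. Upf1-FLAG had 13 calls without its replicate 1 or without WT-C replicate 1. By ratios of mean CPM alone, with no further scaling, the medians were -0.30, -0.29 and -0.20. The 76 RPL mRNAs showed 64, 60 and 26 that fell and none that rose.

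Among the beak and head proteins, RPS29A, a zinc-binding head protein (YLR388W, XII, 898651 to 898821), had the largest decrease. Its RNA was at 569, 523 and 520 CPM in WT-C, 401, 342 and 388 in Upf1-FLAG, 363, 374 and 309 in DE572AA-FLAG, and 393, 380 and 311 in the strain labelled upf2Δ. Every WT-C library lay above all 9 others. The log2 change was -0.74 ± 0.10 (SE) in DE572AA-FLAG (edgeR adjusted p = 5.91e-05), -0.64 ± 0.10 in the strain labelled upf2Δ and -0.49 ± 0.10 in Upf1-FLAG.

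RPS10A, a beak protein (YOR293W, XV, 867098 to 867852), was at 1233, 1180 and 1228 CPM in WT-C and at 747.7 to 897.3 CPM in all 6 libraries of DE572AA-FLAG and the strain labelled upf2Δ. The groups did not overlap, and Upf1-FLAG, at 759.9, 893.0 and 774.5, was as low. The log2 changes were -0.65 ± 0.08, -0.62 ± 0.08 and -0.56 ± 0.08 (edgeR adjusted p = 1.23e-05, 2.14e-05 and 0.00013). RPS20, a single-copy head protein (YHL015W, VIII, 75412 to 75777), was at 1754, 1601 and 1610 CPM in WT-C, 1261, 1205 and 1134 in Upf1-FLAG, 1219, 1053 and 1181 in DE572AA-FLAG and 1184, 1276 and 1278 in the strain labelled upf2Δ. WT-C stood above all others, and the log2 change in DE572AA-FLAG was -0.64 ± 0.06 (edgeR adjusted p = 1.69e-06).

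Among the proteins that line the mRNA channel, RPS2, at the mRNA entry (YGL123W, VII, 277617 to 278381), was at 2289, 2260 and 2323 CPM in WT-C, 1732, 1880 and 1889 in Upf1-FLAG and 1671, 1633 and 1711 in DE572AA-FLAG. The 3 sets did not overlap with WT-C, and the log2 change was -0.57 ± 0.06 in DE572AA-FLAG (edgeR adjusted p = 7.51e-06) and -0.30 ± 0.06 in Upf1-FLAG. RPS3, its neighbour at the entry, changed by -0.37 in DE572AA-FLAG (edgeR adjusted p = 0.009), and in Upf1-FLAG its value was -0.06, which did not pass.

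RPS15 and RPS31 fell in DE572AA-FLAG and were not called in Upf1-FLAG, where the replicates spread and, for RPS31, reached into the wild type range. RPS15 was at 2423, 2341 and 2386 CPM in WT-C, 1847, 2211 and 2136 in Upf1-FLAG and 1958, 1931 and 1954 in DE572AA-FLAG, a log2 change in the mutant of -0.41 ± 0.08 (edgeR adjusted p = 0.000529). RPS31 was at 2466, 2393 and 2331 CPM in WT-C, 1887, 2062 and 2356 in Upf1-FLAG and 2010, 2018 and 1865 in DE572AA-FLAG, a change of -0.40 ± 0.11 (edgeR adjusted p = 0.00586). RPS12, the third beak protein, changed by -0.29 ± 0.11 in DE572AA-FLAG (edgeR adjusted p = 0.0451), and -0.27 in the strain labelled upf2Δ missed the threshold (adjusted p = 0.0589). RPS13, a platform protein, changed by -0.38 ± 0.09 and -0.34 in those strains (edgeR adjusted p = 0.00289 and 0.00649).

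Paralogs of one protein did not always move alike, with the caution that their counts were divided by estimate. RPS26A and RPS26B, at the mRNA exit, fell by 0.37 and 0.46 on the log2 scale in DE572AA-FLAG. RPS22A fell by 0.58 (edgeR adjusted p = 2.33e-05), and RPS22B had -0.02 (adjusted p = 0.892). RPS14A fell by 0.62 and RPS14B by 0.35, and RPS9A by 0.25 and RPS9B by 0.48. RPS10B fell by 0.44. RPS28A fell by 0.41 (adjusted p = 0.0478), and RPS28B, whose mRNA is known to be decapped through Edc3 when its own protein binds it, had -0.07 (adjusted p = 0.747). The 6 members called lower in none of the 3 strains included RPS29B, RPS27A, RPS21A, RPS28B and RPS30A. RPS27A ran from 0.0 to 65.1 CPM in the tagged strains and gave no usable RNA value.

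Set against Upf1-FLAG, which carries the unaltered gene on the same vector, DE572AA-FLAG was lower for 23 members (11.2% of all transcripts were lower) and none was higher, with a median of -0.22. By mean CPM without further scaling, the member median was -0.08 and that of all transcripts 0.14, and 39 of 56 were below 0. RPS0A, a protein of the solvent side of the 40S, had the largest change, -0.38 ± 0.06 (edgeR adjusted p = 0.000831), followed by RPS14A and RPS27B at -0.35 each and RPS0B at -0.35. The strain labelled upf2Δ was lower than Upf1-FLAG for 6 members (8.76% of all), led by RPS9A at -0.34 ± 0.07 (edgeR adjusted p = 0.00248), with RPS4A and RPS4B at -0.24 each and RPS7B at -0.20. Its member median was -0.15, and -0.06 without further scaling, where 39 of 56 were below 0. These counts rested on single libraries. For DE572AA-FLAG the count was 37 without Upf1-FLAG replicate 1, 11 without its replicate 2, 10 without its replicate 3, 15 without DE572AA-FLAG replicate 1 or 2 and 7 without its replicate 3. For the strain labelled upf2Δ it was 30 without Upf1-FLAG replicate 1 and 1 to 3 without any other library. What separated these libraries was not tested.

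**Figure D2:**
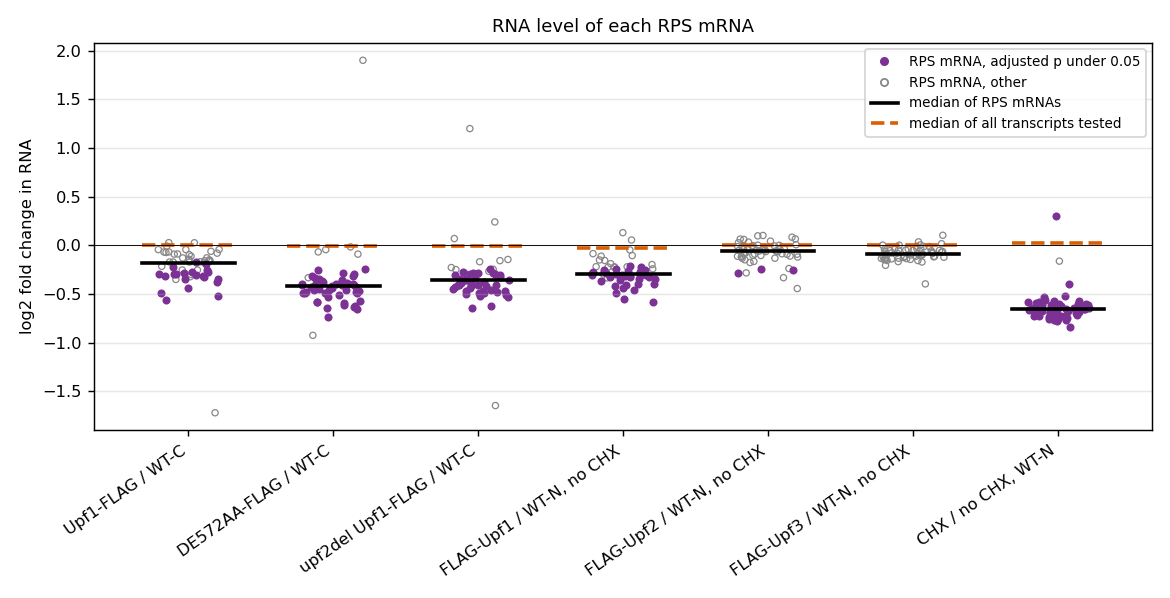
log2 fold change in RNA of each RPS mRNA (points, filled where the adjusted p was under 0.05) in 7 comparisons, with the median of the RPS mRNAs (black line) and of all transcripts tested (dashed orange line). The RPS median was below 0 in all 7, lowest for CHX against no CHX in WT-N at -0.65, after TMM scaling; without it that median was -0.28 and DE572AA-FLAG against WT-C had -0.30.

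The unspliced forms of some RPS transcripts moved the other way. Of 44 RPS pre-mRNA entries tested, 13 rose and 3 fell in DE572AA-FLAG, 14 rose and 3 fell in the strain labelled upf2Δ, and 5 rose and 1 fell in Upf1-FLAG. Over all 326 pre-mRNA entries the counts were 67 and 26, 74 and 19, and 44 and 13. Medians of the RPS entries were 0.07, 0.21 and 0.07, against 0.17, 0.23 and 0.08 for all pre-mRNA entries. Of all transcripts tested 26.3%, 26.0% and 17.5% rose. The RPS entries that rose are shares near these, so the RPS set did not stand out. RPS13 pre-mRNA (YDR064W, IV, 579458 to 580452) was at 189.6, 173.3 and 180.9 CPM in WT-C, 321.5, 367.6 and 335.3 in Upf1-FLAG, 646.1, 549.3 and 581.8 in DE572AA-FLAG and 536.7, 546.8 and 641.0 in the strain labelled upf2Δ. WT-C, Upf1-FLAG and the other pair of strains formed 3 separate levels. The log2 change was 0.94 ± 0.08 in Upf1-FLAG (edgeR adjusted p = 2.25e-06) and 1.59 ± 0.08 in each of the others (3.03e-09 and 3.17e-09), and DE572AA-FLAG exceeded Upf1-FLAG by 0.66 ± 0.08 (adjusted p = 7.18e-05). The unspliced form was 12.2 to 12.5% of RPS13 counts in WT-C and 34.9 to 36.6% in DE572AA-FLAG, and the mature mRNA fell over the same libraries.

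RPS9A (YPL081W, XVI, 404950 to 406044), a body protein near the mRNA entry, showed the same order at a lower size. Its pre-mRNA was at 109.6, 107.6 and 113.1 CPM in WT-C, 146.8, 160.3 and 161.3 in Upf1-FLAG and 230.7, 208.2 and 197.5 in DE572AA-FLAG. The 3 groups did not overlap, and the change in DE572AA-FLAG was 0.83 ± 0.07 (edgeR adjusted p = 4.24e-07). RPS9B pre-mRNA rose by 0.88 ± 0.17 in DE572AA-FLAG, with replicates from 385.5 to 535.1 CPM against 215.5 to 229.3 in WT-C. RPS14B, whose splicing is known to be blocked by its own protein, was at 85.5, 77.5 and 75.6 CPM unspliced in WT-C and 152.7, 91.1 and 136.3 in DE572AA-FLAG, a change of 0.56 ± 0.18 (edgeR adjusted p = 0.0275). RPS26A pre-mRNA rose by 0.74 from about 8 CPM (adjusted p = 0.0142). In the other direction, RPS10A and RPS27B pre-mRNA fell in DE572AA-FLAG by 0.33 and 0.40.

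**Figure D3:**
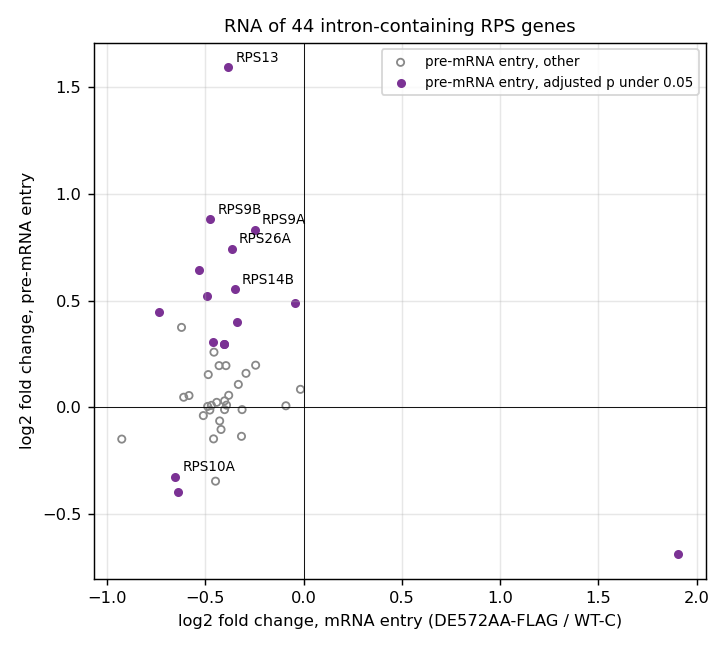
log2 fold change of the pre-mRNA entry (vertical) against that of the mRNA entry (horizontal), DE572AA-FLAG over WT-C, for the 44 RPS genes with both. Most points lie left of 0, and RPS13 is highest at 1.59.

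Without CHX, RPS RNA was lower in FLAG-Upf1 as well, and few or no members fell in FLAG-Upf2 and FLAG-Upf3. In FLAG-Upf1 36 of 56 fell against WT-N and none rose, where 20% of 6736 transcripts fell, with a member median of -0.29. The count was 10 and 14 without FLAG-Upf1 replicate 1 and 2 and 13 without WT-N replicate 1. RPS15 was at 2000 and 2410 CPM in WT-N and at 1566 and 1590 in FLAG-Upf1, which did not overlap, a change of -0.58 ± 0.11 (edgeR adjusted p = 0.00174). RPS31 was at 4530 and 4712 CPM in WT-N and 3593 and 3872 in FLAG-Upf1, a change of -0.41 ± 0.12 (edgeR adjusted p = 0.0159). RPS9B, RPS26A and RPS7A fell by 0.55, 0.49 and 0.46 on the log2 scale.

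In FLAG-Upf2 without CHX, RPS29A, RPS28A and RPS25A fell by 0.29, 0.26 and 0.24 (4.97% of all transcripts fell), and no member was called once FLAG-Upf2 replicate 2 or WT-N replicate 1 was left out. In FLAG-Upf3 without CHX no member was called by edgeR or DESeq2 (4.69% of all were called), and 1 was lower at an unadjusted p under 0.05. RPS15 was at 1992 and 2066 CPM in FLAG-Upf2 and 2025 and 2006 in FLAG-Upf3, and 3 of these 4 values lay between the WT-N libraries and 1992 just under them. The difference between the Upf1 and the Upf2 or Upf3 strains was not tested.

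With CHX the N strains showed few calls, though most members lay below 0 in all but FLAG-Upf3. Member medians were -0.10, -0.04, 0.02 and -0.18 in FLAG-Upf1, FLAG-Upf2, FLAG-Upf3 and the triple strain. In that order 46, 41, 24 and 54 of 56 lay below 0. By mean CPM without further scaling the triple strain had a median of -0.10, with 47 below 0. DESeq2 called 19 lower there. By edgeR the calls were as follows. FLAG-Upf1 had 1 lower member, RPS30B (5.75% of all were lower), FLAG-Upf3 1 higher, RPS29A at 0.31 ± 0.06 (1.35% were higher), and the triple strain 4 lower, among them RPS15 at -0.35, RPS11B and RPS16A (8.95% were lower). FLAG-Upf2 had none by edgeR, none by DESeq2 and none at an unadjusted p under 0.05 (1.83% of all were called). Each of these counts turned on single libraries. FLAG-Upf1 had 13 calls without its replicate 2 and 0 without its replicate 1 or WT-N replicate 2, the triple strain had 0 without its replicate 1 or either WT-N library, and FLAG-Upf3 had 0 without its replicate 1 or WT-N replicate 2 and 2 without WT-N replicate 1. RPS30B was at 558.7 and 518.8 CPM in WT-N and 323.3 and 423.1 in FLAG-Upf1, and its change of -0.51 was 0.01 when both RPS30 genes and their pre-mRNAs were summed.

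RPS RNA was also lower with CHX than without it. In WT-N 54 fell and 1 rose with CHX, where 29.5% of all transcripts fell and 30.8% rose, and the member median was -0.65. By mean CPM without further scaling the median was -0.28 and 54 of 56 were lower, while the median of all transcripts was 0.39. RPS31 was at 4530 and 4712 CPM without CHX and 3610 and 3565 with it, a change of -0.74 ± 0.12 (edgeR adjusted p = 0.000152), with no overlap. RPS25A, at 1389 and 1432 without and 1104 and 1051 with CHX, changed by -0.77 ± 0.06 (edgeR adjusted p = 1.18e-06). RPS30A had the largest decrease, -0.84 ± 0.10, and RPS15 and RPS26A changed by -0.78 and -0.77. RPS9A was the exception, at 404.7 and 413.9 CPM without and 678.4 and 631.4 with CHX (0.30 ± 0.06, adjusted p = 0.000446), but the sum of both RPS9 genes and their pre-mRNAs changed by -0.47. RPL mRNAs showed 71 of 76 lower.

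The total 80S footprints on RPS mRNAs were also lower in the tagged C strains. Of 56 members 15 were lower for Upf1-FLAG, 28 for DE572AA-FLAG and 26 for the strain labelled upf2Δ, and none rose, where 1.79%, 3.87% and 3.32% of 5086 transcripts fell. Member medians were -0.40, -0.45 and -0.46, and 22, 34 and 35 of the RPL mRNAs fell. Depth differed between these groups, with 213689 to 714997 counts in the WT-C totals and 1294981 to 3020880 in the others; its part in the result was not tested. Counts moved with single libraries. They were 5 in Upf1-FLAG without its replicate 2 or 3 and 7 without WT-C replicate 1 or 2. They were 13 in DE572AA-FLAG without its replicate 3, 17 without its replicate 2 and 18 without WT-C replicate 1 or 2. In the strain labelled upf2Δ they were 6 without its replicate 3 and 15 to 17 without its replicate 1 or 2 or WT-C replicate 1 or 2.

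RPS12, the single-copy beak protein (YOR369C, XV, 1028194 to 1028625), was lower in all 3 strains. Its total footprints were at 1338, 1154 and 1164 CPM in WT-C, 762.7, 674.3 and 627.5 in Upf1-FLAG, 708.1, 744.5 and 536.3 in DE572AA-FLAG and 742.3, 588.0 and 694.2 in the strain labelled upf2Δ. The wild type stood above all 9 others, with log2 changes of -0.97 ± 0.14, -1.05 ± 0.14 and -1.01 ± 0.14 (edgeR adjusted p = 0.00018, 1.74e-05 and 2.99e-05). RPS11B, at 1484, 1691 and 1976 CPM in WT-C, was at 949.6, 1090 and 924.4 in DE572AA-FLAG, a change of -0.97 (edgeR adjusted p = 1.35e-05). RPS15 changed by -0.60, -0.75 and -0.57 in the 3 strains. RPS4A, at 13570, 8214 and 7704 CPM in WT-C and 5230, 5680 and 4976 in the strain labelled upf2Δ, changed by -1.07 ± 0.24 (edgeR adjusted p = 0.0168), with 1 wild type library well above the others.

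In the N experiment the total footprints gave almost no RPS calls. These totals held 107334 to 767020 counts with CHX and 143937 to 935202 without, a range that overlaps the WT-C totals. They had 2 replicates, and the fitted spread between replicates (biological coefficient of variation) was 0.473 against 0.13 in the C totals. What limited the calls was not tested. By edgeR no member was called in FLAG-Upf1, FLAG-Upf2 or FLAG-Upf3 without CHX (0.0461%, 0.254% and 0.023% of 4339 transcripts called) or with CHX (0.0461%, 0.23% and 0.023%). At an unadjusted p under 0.05 the members higher and lower were 0 and 13, 1 and 4, and 0 and 5 without CHX, and 2 and 12, 1 and 3, and 0 and 1 with it. DESeq2 called 2 in FLAG-Upf1 without CHX, 1 with it, and 0 in the other 4 comparisons. Without WT-N replicate 2, 3, 6 and 6 members were called in the 3 strains without CHX, all of them higher. Without WT-N replicate 1, 1 was called lower in FLAG-Upf1 and 1 in FLAG-Upf2, and 2 were lower without FLAG-Upf1 replicate 1. In the triple strain RPS22B was at 653.7 and 831.5 CPM against 179.4 and 312.7 in WT-N (1.36 ± 0.35, edgeR adjusted p = 0.0467; 0.115% of all rose). Another member fell (0.853% of all fell). Neither call was left when paralogs and pre-mRNAs were summed, and each was lost without 1 or another library of the triple strain or WT-N. Comparing CHX with no CHX in WT-N on the 27-32 nt class, RPS31 rose from 1708 and 920.8 to 3872 and 2182 CPM (1.47 ± 0.31, adjusted p = 0.0478; 0.0281% of 3556 rose). That single call was lost without WT-N CHX replicate 1 or no-CHX replicate 1, and 15 members were called higher without no-CHX replicate 2.

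Footprints per RNA were high on RPS mRNAs in WT-C. Total footprints over RNA in 1 model were tested against 0 on the log2 scale after TMM scaling. Of 56 members 46 were called above 0 and 5 below. Of 6624 transcripts 22.9% were called above and 33.7% below. RPL mRNAs had 63 of 76 above and 4 below, with a median of 1.48. The RPS median was 1.23 against -0.51 for all. By mean CPM without further scaling the medians were 0.42 and -1.37. Among single-copy genes, RPS13 had 1.89, RPS2 1.43, RPS3 1.27, RPS31 1.09, RPS15 0.84 and RPS12 0.76 on the log2 scale. RPS20 was the exception among them, at 1754, 1601 and 1610 CPM in RNA and 585.0, 517.5 and 539.1 in footprints, a value of -0.80 ± 0.11 (edgeR adjusted p = 1.22e-06). RPS24A had 4.19 ± 0.14 and RPS21A 4.08 ± 0.29, RPS22B 2.998 and RPS9B 2.26, and RPS26B had -1.09 ± 0.19. These values rest on the estimated division of reads. In WT-C RNA the pre-mRNA entry took 26.4 to 29.0% of RPS24A counts, 25.5 to 26.2% of RPS21A and 38.4 to 41.0% of RPS22B. The A share of the RPS21 pair was 9.11% in RNA and 41.4% in footprints, and RPS24 and RPS22 shifted as given above. RPS1B and RPS30A were called below 0, at -0.51 and -0.45, which is near the median of all transcripts. They were at 0.47 and 0.33 when their paralogs and pre-mRNAs were summed. The value of RPS27A, 4.31 ± 1.64, rested on RNA counts given mostly to other entries.

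Changes of footprints beyond those of RNA were rare. In DE572AA-FLAG, RPS0A and RPS27B rose relative to RNA, by 0.75 ± 0.15 and 0.70 ± 0.17 (edgeR adjusted p = 0.00958 and 0.0355; 1.45% of all rose), and RPS12 fell by 0.71 ± 0.18 (adjusted p = 0.0368; 0.498% fell). RPS12 also fell in the strain labelled upf2Δ, by 0.67 ± 0.18 (adjusted p = 0.0417; 0.513% of all fell), a call that was lost with the lysate as a block (0 called) and without its replicate 2 or 3 or any WT-C library. In Upf1-FLAG no member was called (0.694% of all were), RPS12 had -0.73 ± 0.18 (adjusted p = 0.0503), and 4 members were higher and 6 lower at an unadjusted p under 0.05. DESeq2 was not run on this model. For DE572AA-FLAG 1 call was left without its replicate 1 or 3 or WT-C replicate 2 and 0 without WT-C replicate 3; for Upf1-FLAG 2 were called without its replicate 1. With size factors by the RLE method the DE572AA-FLAG calls were 0 higher and 2 lower, as that scaling moved the median of all transcripts by -0.12.

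RPS mRNAs were depleted from the ribosomes that came down with Upf1 in the C experiment. In the IP against the total footprints of the same strain, 48 of 56 were lower for Upf1-FLAG, 44 for DE572AA-FLAG and 49 for the strain labelled upf2Δ, where 22.9%, 20% and 22.9% of 5050 transcripts were lower. The member medians were -1.21, -1.04 and -1.16, against medians of all within 0.01 of 0. One member, RPS0B, was higher in the strain labelled upf2Δ (22% of all were higher), and 44 were lower in all 3 strains. With TMM factors from transcripts other than RPS and RPL mRNAs, 0 members were called higher in the strain labelled upf2Δ. RPL mRNAs were depleted too, with 63, 55 and 60 of 76 lower.

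RPS31 illustrates the size of the depletion. Its IP footprints were at 664.1, 559.8 and 756.5 CPM in Upf1-FLAG, where the total held 2270, 2433 and 2181. They were at 769.5, 1120 and 851.1 in DE572AA-FLAG, where the total held 2105, 2064 and 2079, and at 813.6, 562.6 and 695.2 in the strain labelled upf2Δ, where it held 2577, 2272 and 2237. IP and total did not overlap in any strain, and the log2 ratios were -1.94 ± 0.13, -1.37 ± 0.13 and -1.91 ± 0.13 (edgeR adjusted p = 1.09e-14, 4.91e-11 and 1.13e-14). RPS4B, with IP at 604.4, 599.6 and 717.0 and total at 3239, 3052 and 3611 CPM in Upf1-FLAG, had -2.50 ± 0.14 (adjusted p = 1.28e-16), and -2.26 and -2.56 in the other 2 strains. RPS21A, RPS23B and RPS6A were the other members with the largest decreases, and RPS6A was at 0.0 to 28.4 CPM in the Upf1-FLAG IP. RPS13 had -1.75, -1.45 and -1.60, and RPS24A -2.23, -1.79 and -1.89.

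Depletion was not uniform over the 40S proteins. RPS2 was mildly lower in the Upf1-FLAG IP, at -0.34 ± 0.10 (edgeR adjusted p = 0.00621). RPS15 was lower in Upf1-FLAG and the strain labelled upf2Δ, at -0.83 and -0.87, and not called in DE572AA-FLAG, at -0.29 (adjusted p = 0.138). RPS28A and RPS10B, of the exit side and the beak, had -0.97 ± 0.14 and -1.61 ± 0.14 in Upf1-FLAG.

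The 7 members called lower in none of the 3 C pull-downs were RPS0B, RPS3, RPS12, RPS14B, RPS20, RPS29B and RPS30A. RPS3 (YNL178W, XIV, 302680 to 303402) was at 2465, 2837 and 2816 CPM in the Upf1-FLAG IP and 2459, 2506 and 2303 in the total, a ratio of 0.03 (adjusted p = 0.887). RPS12 was at 700.8, 903.3 and 971.3 against 762.7, 674.3 and 627.5, a ratio of 0.20 (adjusted p = 0.23). RPS0B (YLR048W, XII, 242232 to 243349) was at 2834, 3076 and 3134 CPM in the IP of the strain labelled upf2Δ and 2075, 2250 and 2018 in its total, without overlap, a ratio of 0.38 ± 0.13 (adjusted p = 0.0181). Its paralog RPS0A was called lower in all 3 C pull-downs. The A share of the pair was 54.6% in the Upf1-FLAG total and 44.4% in its IP, and reads of the pair were divided by estimate.

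No difference in the IP ratio of a single RPS mRNA was detected between the C strains, though most ratios lay above those of Upf1-FLAG. Against Upf1-FLAG, the ratio of DE572AA-FLAG differed for no member by edgeR or DESeq2 (0.139% of all were called). At an unadjusted p under 0.05, 6 members were higher. The member median was 0.22 against -0.01 for all, and 46 of 56 lay above 0. Of 76 RPL mRNAs 3 were called higher. With the lysate as a block 1 member was called. In the strain labelled upf2Δ no member was called either (0.0% of all, edgeR and DESeq2), with 1 higher at an unadjusted p under 0.05. The median was 0.07, and 39 of 56 lay above 0.

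In the main length class the N-terminally tagged proteins gave the same direction, with lower medians for Upf2 and Upf3 than for Upf1. In FLAG-Upf1 23 of 56 members were lower in the IP without CHX and 13 with it, in the triple strain 26, in FLAG-Upf2 44 and 43, and in FLAG-Upf3 42 and 45, and none was higher. Over the 4578 transcripts tested, 2.62%, 1.7%, 7.4%, 7.23%, 7.75%, 7.93% and 9.24% were lower in the same order. The member medians were -1.57, -1.37, -1.52, -2.46, -2.56, -2.59 and -2.93. RPL mRNAs were depleted too, with 39, 30, 42, 61, 65, 63 and 62 of 76 lower in that order. Over the 7 comparisons 49 members lay below 0 in all, 40 were called lower in at least 4, and 8 were lower in all, among them RPS4B, RPS13, RPS15, RPS24A, RPS26B, RPS27B and RPS31.

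RPS15 was lower in the pull-down of every bait. With CHX its total footprints were at 2434 and 2395 CPM in FLAG-Upf1, 2792 and 2395 in FLAG-Upf2 and 2644 and 3076 in FLAG-Upf3. The IPs held 844.9 and 553.8, 291.9 and 348.7, and 227.6 and 184.3. IP and total were far apart in each strain, with log2 ratios of -1.76 ± 0.27, -3.02 and -3.80 ± 0.30 (edgeR adjusted p = 3.75e-05, 3.35e-11 and 2.81e-14), and -3.001 ± 0.302 in the triple strain. Without CHX the ratios were -2.09 ± 0.28, -3.13 and -3.38.

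RPS13 and RPS24A followed the same order of baits. RPS13 IP was at 517.4 and 274.8 CPM in FLAG-Upf1, 202.5 and 145.7 in FLAG-Upf2 and 67.7 and 112.3 in FLAG-Upf3 with CHX, with totals of 1056 to 1361 CPM, and the ratios were -1.47, -2.97 and -3.60. RPS24A, whose gene (YER074W, V, 306323 to 307196) has an intron, was at 456.5 and 451.7, 266.2 and 198.7, and 127.8 and 107.3 CPM in the IPs against totals of 1479 to 2077. Its FLAG-Upf3 ratio was -4.11 ± 0.37 (edgeR adjusted p = 1.53e-12). RPS31 had -2.27, -2.84 and -3.34 with CHX and -1.32, -3.23 and -2.92 without it.

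Larger single values belonged to paralogs with few IP counts. The largest named decreases were RPS19B at -3.42 and RPS26B at -3.23 in FLAG-Upf1 without CHX, RPS23A at -4.39 and RPS29B at -4.26 in FLAG-Upf2 without CHX, RPS30A at -4.09 and RPS25B at -3.64 with CHX, and RPS21B at -5.16 and RPS26B at -5.10 in FLAG-Upf3 without CHX. RPS30B and RPS29A had -4.28 and -4.25 in FLAG-Upf3 with CHX, and RPS27A and RPS4B had -3.30 and -3.07 in the triple strain.

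RPS3 and RPS2 were again among the members near the total footprints. RPS3 IP was at 3971 and 4063 CPM in FLAG-Upf3 with CHX against a total of 3529 and 3906, a ratio of 0.11 (adjusted p = 0.818), and it was mildly lower in FLAG-Upf2 with CHX (-0.69, adjusted p = 0.0241) and in the triple strain (-0.73, adjusted p = 0.0189). RPS2 IP was at 3491 and 3557 CPM in FLAG-Upf3 with CHX, just under a total of 3599 and 4181, and passed once, in FLAG-Upf3 without CHX at -0.95 (edgeR adjusted p = 0.00552). RPS0B was among the 6 members that passed in none of the 7, at 2380 and 2022 CPM against 2014 and 2273 in FLAG-Upf3 with CHX. RPS4A and RPS0A were also among them, with median ratios over the 7 of -0.26 and -0.78. Both were lower in all 3 C pull-downs, so the exceptions differed between the experiments. Among the 56 members, Spearman's rho between the IP ratio and effective length was 0.44 to 0.52 for the Upf2 and Upf3 pull-downs, 0.26 to 0.32 for FLAG-Upf1 and 0.10 to 0.16 in the C experiment, as a description over mRNAs that share libraries.

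The lower ratios of FLAG-Upf2 and FLAG-Upf3 were tested directly against FLAG-Upf1. With CHX the FLAG-Upf3 ratio differed for RPS13 by -2.13 ± 0.47, for RPS15 by -2.04 ± 0.39 and for RPS24A by -2.35 ± 0.47 on the log2 scale (edgeR adjusted p = 0.0118, 0.00332 and 0.00484; 0.677% of all were lower), with a member median of -1.42. No other member passed. FLAG-Upf2 with CHX had no call (0.0% of all), 18 lower at an unadjusted p under 0.05 and 6 by DESeq2, with a median of -1.03. Without CHX FLAG-Upf2 (0.0% of all) and FLAG-Upf3 (0.153%) had no call by edgeR and 4 and 7 by DESeq2, with 13 lower and 20 lower at an unadjusted p under 0.05, 2 higher in FLAG-Upf3, and medians of -0.67 and -1.05. The 3 calls fell to 0 without FLAG-Upf1 replicate 1 and to 1 without either FLAG-Upf3 replicate. All these comparisons share the FLAG-Upf1 libraries.

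The counts against total also shrank when a strain was left with 1 library. They were 5 and 1 for FLAG-Upf1 with CHX without its replicate 1 and 2, 7 without replicate 2 for FLAG-Upf1 without CHX, and 17 without replicate 2 for the triple strain. For FLAG-Upf2 they were 25 and 15 with CHX and 25 and 16 without CHX (replicate 1 and 2 left out), and for FLAG-Upf3 26 and 25 with CHX and 22 without CHX (replicate 2). The counts were higher when paralogs and pre-mRNAs were summed, at 25 and 38 for FLAG-Upf1 with and without CHX and 41 for the triple strain.

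**Figure D4:**
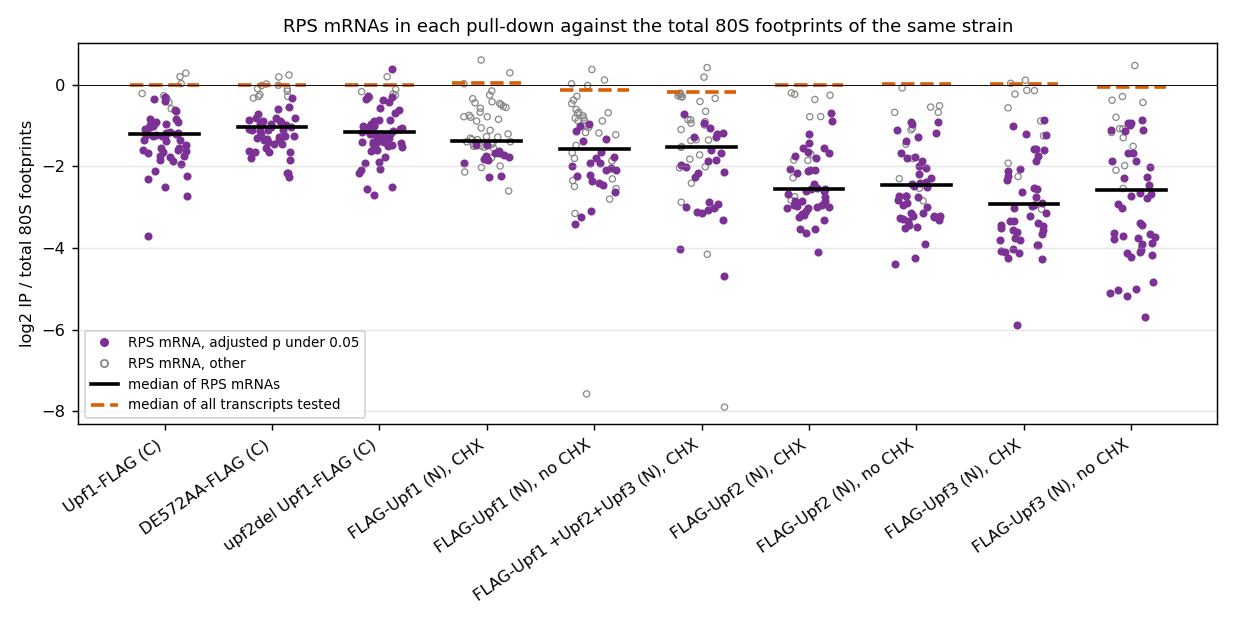
log2 ratio of IP to total 80S footprints of the main length class for each RPS mRNA (points) in 10 pull-downs. Filled points had an adjusted p under 0.05, and lines are the median of the RPS mRNAs (black) and of all transcripts tested (dashed orange). The RPS medians run from -1.04 to -2.93, and those of all transcripts from -0.18 to 0.04.

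Longer footprints of 37-43 nt in the C IPs held relatively more RPS reads than the 27-32 nt class. This class was analysed for the IPs of Upf1-FLAG and the strain labelled upf2Δ, with 119800 to 284976 counts a library. RPS mRNAs took 6.54 to 7.74% of it, above all 27-32 nt values of the C IPs. The 27-32 nt totals of these strains held 7.38 to 7.87% and 6.69 to 7.38%. No 37-43 nt class of the C totals was analysed here, so whether the rise belongs to the pull-down cannot be told. In a model with the lysate as a block, 39 of 56 members were higher and 12 lower in the longer class. Of 3901 transcripts 35.1% were higher and 37.4% lower. RPL mRNAs had 40 of 76 higher and 16 lower, with a median of 0.37. The RPS median was 0.57. By mean CPM without further scaling 51 RPS mRNAs were higher, with a median of 1.01.

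RPS28A, near the E site, was at 283.3, 179.0 and 221.9 against 959.9, 1418 and 1691 CPM in Upf1-FLAG without overlap of the classes (1.96 ± 0.12, edgeR adjusted p = 6.24e-15). RPS13 was at 671.7, 470.4 and 675.3 against 2780, 2533 and 2681 (1.58 ± 0.09), and RPS26B changed by 1.89. Among single-copy genes RPS15, RPS20 and RPS12 were higher by 0.79, 0.69 and 0.38, and RPS2 had 0.15 (adjusted p = 0.0839).

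In the other direction, RPS24B was at 772.1, 505.4 and 608.9 CPM at 27-32 nt and 419.4, 158.0 and 180.8 at 37-43 nt (-2.00 ± 0.14, edgeR adjusted p = 1.58e-12). RPS0B was at 3033, 3271 and 3017 against 1977, 2775 and 2644 in Upf1-FLAG (-0.77 ± 0.08). RPS3 had -0.18 (adjusted p = 0.048) and RPS31 -0.36 (adjusted p = 0.00191), both small. RPS6A, at 3.75 ± 0.31, had -0.05 when RPS6A, RPS6B and their pre-mRNAs were summed.

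**Figure D5:**
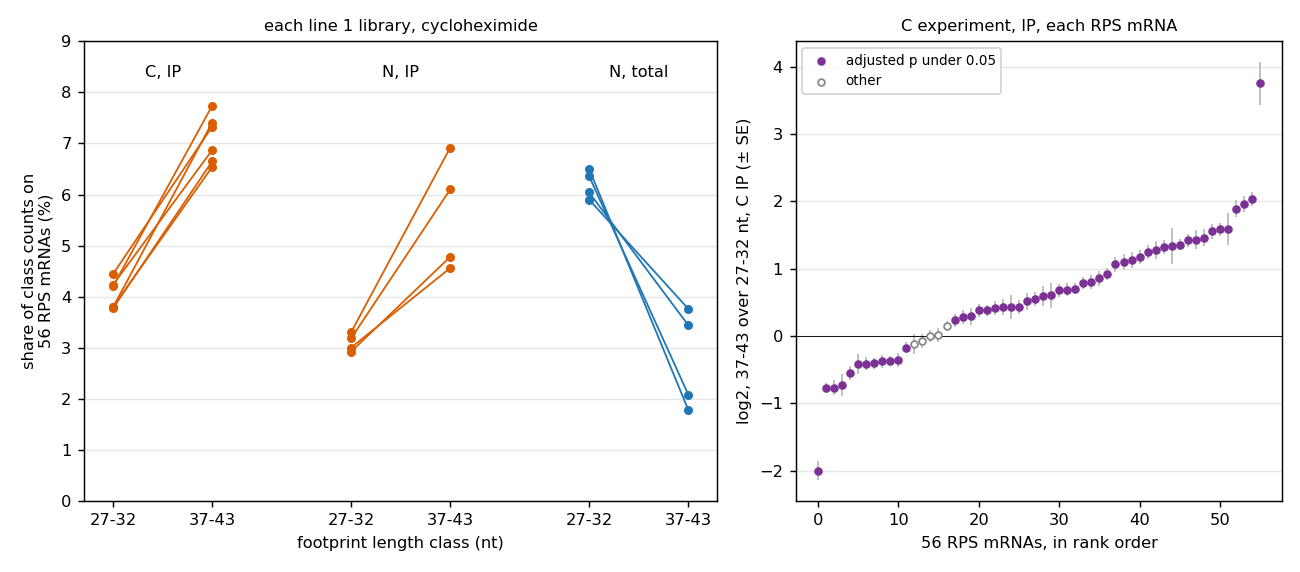
Left, share of the counts of each footprint length class on the 56 RPS mRNAs, in percent, with 1 line a library harvested with CHX. Right, log2 ratio of 37-43 to 27-32 nt CPM with its SE for each RPS mRNA in the C IPs, in rank order; from 27-32 to 37-43 nt, the share rises in every IP library shown and falls in every N total library.

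The N experiment had this class for FLAG-Upf1 and the triple strain at low depth, 10446 to 21461 counts in the totals, where 10 to 28 members had no count, and 32434 to 415191 in the IPs. In the totals 5 members were lower at 37-43 nt (3.04% of 1448 transcripts), with a member median of -1.91 against -1.84 for all. RPS31 was at 1996 and 1929 CPM at 27-32 nt and 450.9 and 326.2 at 37-43 nt in FLAG-Upf1 (-2.76 ± 0.69, edgeR adjusted p = 0.00318), and RPS2 changed by -1.63 ± 0.52 (adjusted p = 0.0492). The count was 0 without either FLAG-Upf1 replicate, 17 and 23 without triple strain replicate 1 and 2, 0 with RLE size factors, which moved the median of all by 0.59, and 20 without the lysate block. In the IPs no member was called (0.0% of 2601 transcripts), and 7 were higher and 4 lower when p was not adjusted (under 0.05); without the block 5 were higher and 1 lower, and 31 and 27 were called without triple strain replicate 1 and 2. The RPS share rose in these IPs to 4.56 to 6.92% and fell in the totals to 1.78 to 3.76%. In this class it was thus higher in the IPs than in the totals, the reverse of the main class. The IP ratio of single members was not tested in this class.

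Without CHX, footprints of 20-23 nt, which come from ribosomes with an empty A site, were relatively more frequent on some RPS mRNAs. In the totals 16 members were higher than at 27-32 nt and 1 lower, where 1.79% and 0.447% of 3357 transcripts were, with a median of 0.40 against 0.25 for all. RPS10A was at 858.4 and 1027 CPM at 20-23 nt against 227.2 and 332.6 at 27-32 nt in WT-N, 643.9 and 1199 against 277.8 and 0.0 in FLAG-Upf1, 1176 and 1230 against 277.5 and 289.8 in FLAG-Upf2, and 887.6 and 826.0 against 118.1 and 170.9 in FLAG-Upf3. No library of the shorter class overlapped with the longer, a change of 2.26 ± 0.26 (edgeR adjusted p = 4.29e-09). RPS27B, RPS12 and RPS3 were higher by 1.24, 0.87 and 0.47, and RPS14B was lower, at 221.9 and 421.6 against 939.8 and 852.0 CPM in WT-N (-1.14 ± 0.22, adjusted p = 0.000116). The count was 28 and 27 without WT-N replicate 1 and 2, 11 without the lysate block, and 17 higher and 4 lower with RLE size factors.

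In the IPs of the same class 5 of 51 members tested were higher (1.59% of 2708 transcripts) and none lower. RPS18A, a head protein, was at 1852 and 2007 CPM at 20-23 nt against 151.3 and 87.6 at 27-32 nt in FLAG-Upf1, 1998 and 1124 against 358.3 and 360.6 in FLAG-Upf2, and 1422 and 2071 against 319.7 and 229.1 in FLAG-Upf3, a change of 2.84 ± 0.23 (edgeR adjusted p = 2.06e-16). RPS16B and RPS3 were higher by 1.81 and 0.54. Left out in turn, FLAG-Upf1 replicate 1 and 2 gave 9 and 10 calls, FLAG-Upf2 replicate 1 and 2 gave 1 and 2, and FLAG-Upf3 replicate 2 gave 9.

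Genes that act on the 40S subunit were followed in the same fits. Their counts stand against all transcripts, of which 26.3% rose and 27.6% fell in DE572AA-FLAG RNA and 21.9% were higher and 22.9% lower in the Upf1-FLAG IP. Of 19 assembly factors, 16 fell and 1, RIO1 (0.38), rose in DE572AA-FLAG RNA, with a median of -0.35 close to that of RPS mRNAs, while 15 fell in the strain labelled upf2Δ and 9 in Upf1-FLAG. In the C pull-downs 11 were higher and 3 lower for Upf1-FLAG, 7 and 4 for DE572AA-FLAG, and 9 and 4 for the strain labelled upf2Δ, with medians of 0.46, 0.25 and 0.35. In the 7 N pull-downs 0 to 4 were higher and 0 to 2 lower, with medians of 0.07 to 0.60, and the difference from the RPS mRNAs was not tested. In the Upf1-FLAG IP ENP1, a 40S assembly factor, had 2.11 ± 0.15 (edgeR adjusted p = 1.58e-14), and NOP1, PNO1 and HRR25 had -0.83, -0.68 and -0.67. Of the 4 dedicated RPS chaperones, TSR2, the escort of Rps26, fell in DE572AA-FLAG RNA by 0.41 and was lower in the Upf1-FLAG IP at -2.01, where FAP7, which binds Rps14, was higher at 0.56. Of 8 regulators of ribosomal protein genes, 2 rose and 5 fell in DE572AA-FLAG RNA, with CRF1, the corepressor that displaces Ifh1, up by 1.304, HMO1 up by 0.33 and RAP1 down at -0.52, and 2 of 7 tested were lower in the Upf1-FLAG IP; the 2 that rose and the 2 lower in the IP are shares near those of all transcripts. Of 5 decay factors 3 fell in that RNA, and in the IP 3 were higher, among them DCP2 at 1.51 and EDC3 at 1.19, and DHH1 was lower at -0.73. ASC1 and STM1, which sit on the 40S outside the RPS names, fell by 0.44 and 0.50 in the RNA of DE572AA-FLAG, and in the Upf1-FLAG IP STM1 was lower at -0.86 and ASC1 had -0.03. With CHX in WT-N, 16 assembly factors, 4 chaperones, 1 regulator, 1 decay factor, ASC1 and STM1 fell, and 4 regulators and 1 decay factor rose. Of all transcripts 29.5% fell and 30.8% rose in that comparison. The 1 regulator and 1 decay factor that fell, and the 1 decay factor that rose, are shares below these.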

How the data were processed

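RNA, total 80S and IP libraries were read from tables of expected counts and FPKM per transcript that the authors deposited. Per the submitters' processing notes, cutadapt, Bowtie and RSEM and the genome builds R64 and sacCer3 were used; versions and settings are not given in the sources used here. RSEM divides reads shared by paralogs or splice forms, and the authors' expected counts were rounded to whole numbers. The members, gene lists and tests were chosen with earlier results of these data known. Gene names and coordinates came from a RefSeq table (R64), which gave a symbol to 5966 of 6656 loci.

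Tests were edgeR 4.0.16 quasi-likelihood F tests (R 4.3.3, limma 3.58.1) with TMM scaling, robust dispersion, a filterByExpr minimum count of 10, and Benjamini-Hochberg adjustment over all transcripts tested, called at 0.05. SE is the log2 change over the root of F. Each kind of library and experiment had 1 model, and the length class models had the lysate as a block. Log2 changes follow TMM scaling and can differ from CPM ratios. Named members are the 4 largest called changes a comparison in each direction without overlap of replicates, the single-copy genes, both paralogs of RPS9, RPS10, RPS14, RPS22, RPS26 and RPS28, and the most unequal, most equal and most shifted pairs; RPS0B, RPS3 and others named as members called in no pull-down or no strain, and RPS29A, RPS24A, RPS4A and RPS9B where repeated elsewhere, were chosen after their values were seen. The scripts were tested on simulated data. Alternatives included DESeq2 1.42.0. A few members that the rule names are not reported here one by one. Sequences were not used here.

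The label codes tie IP, total and RNA libraries to 1 lysate and both treatments of WT-N to 1 transformant. Correlations of deviations from group means between libraries of 1 lysate were -0.025 to 0.058 for IP and total in C, -0.04 to 0.034 in N and -0.043 to 0.057 for total and RNA, and 0.484 for the WT-N RNA libraries of 1 transformant with and without CHX (with 2 replicates, both pairs give 1 value). Depth limits precision most in the 37-43 nt class of N; all errors cover the spread between these replicates.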

Additional observations from a re-analysis of the deposited data

Results flagged for a closer look

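There were 7 differences between groups that passed a direct test of the difference. In the ratio of total footprints to RNA, DE572AA-FLAG differed from WT-C for RPS0A by 0.749, RPS27B by 0.70 and RPS12 by -0.708 on the log2 scale. The strain labelled upf2Δ differed from WT-C for RPS12 by -0.67. In the ratio of IP to total footprints with CHX, FLAG-Upf3 differed from FLAG-Upf1 for RPS13 by -2.126, RPS15 by -2.04 and RPS24A by -2.352. What set these members apart was not tested.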

How the results depend on the processing

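Over all settings, named members past the threshold kept their direction and their call in 1150 values, kept the direction and lost the call in 193, and reversed in 5. Medians of the members, less the median of all transcripts, moved by under the spread between replicates in 509 values and by more in 28, mostly in the N totals; the median of the triple strain's totals was -0.111 with both of its libraries and 0.611 without its replicate 1. The depth of the 37-43 nt class in N limits what its counts can show. DESeq2 was not run for footprints per RNA or for the length classes. The ratios against FLAG-Upf1, the pre-mRNA entries and the unscaled CPM ratios were chosen after the data were seen. Counts of called members that moved by over 1.5 times are given next, from the reported count to the count under the other setting. With RLE size factors, RNA calls went from 1 to 4 (FLAG-Upf1 CHX) and 4 to 7 (triple strain); total calls from 0 to 1 (FLAG-Upf1 without CHX), 2 to 1 (triple) and 1 to 0 (CHX against none); footprints per RNA in Upf1-FLAG from 0 to 1; IP ratios against FLAG-Upf1 from 0 to 1 for FLAG-Upf2 with and without CHX and for FLAG-Upf3 without CHX, and from 3 to 7 for FLAG-Upf3 with CHX; and the 37-43 nt N totals from 5 to 0. With no filter on low counts, totals went from 0 to 3 and 0 to 1 (FLAG-Upf1 without and with CHX), footprints per RNA in Upf1-FLAG from 0 to 1, IP calls from 23 to 36 and 13 to 20 (FLAG-Upf1 without and with CHX), and FLAG-Upf3 against FLAG-Upf1 from 0 to 4 and 3 to 12. With TMM factors from transcripts other than RPS and RPL mRNAs, RNA of the strain labelled upf2Δ against Upf1-FLAG went from 6 to 2, triple totals from 2 to 1, FLAG-Upf3 against FLAG-Upf1 with CHX from 3 to 6, and 37-43 nt N totals from 5 to 12. With paralogs and pre-mRNAs summed together, RNA calls of FLAG-Upf1 and FLAG-Upf3 with CHX went from 1 to 0, triple totals from 2 to 0, CHX against none from 1 to 0, footprints per RNA in DE572AA-FLAG from 3 to 1, IP calls from 23 to 38, 13 to 25 and 26 to 41 (FLAG-Upf1 without CHX, with CHX, triple), FLAG-Upf3 against FLAG-Upf1 from 0 to 2 and 3 to 8, and 37-43 nt N totals from 5 to 14 and 20-23 nt totals from 17 to 30. When the model held no other groups, RNA calls went from 23 to 5 and 6 to 1 (DE572AA-FLAG and the strain labelled upf2Δ against Upf1-FLAG), 3 to 0 (FLAG-Upf2 without CHX), and 1, 1 and 4 to 0 (FLAG-Upf1, FLAG-Upf3 and triple with CHX); totals from 15 to 2 and 28 to 18 (Upf1-FLAG, DE572AA-FLAG), 2 to 0 (triple) and 1 to 0 (CHX against none); triple IP from 26 to 4; and ratios against FLAG-Upf1 from 0 to 2 and 0 to 1 (FLAG-Upf2 and FLAG-Upf3 without CHX) and 0 to 3 and 3 to 17 (with CHX). DESeq2 moved RNA calls from 6 to 15 (strain labelled upf2Δ against Upf1-FLAG), 3 to 6, 1 to 6, 1 to 4 and 4 to 19 (FLAG-Upf2 without CHX, then FLAG-Upf1, FLAG-Upf3 and triple with CHX), totals from 0 to 2, 0 to 1 and 1 to 0 (FLAG-Upf1 without and with CHX, CHX against none), IP from 23 to 35 and 13 to 27 (FLAG-Upf1), and ratios against FLAG-Upf1 from 0 to 4 and 0 to 7 without CHX and 0 to 6 and 3 to 17 with it. The cause of these moves was not tested, except that fewer libraries enter such a model of the compared groups. In the same sums of paralogs and pre-mRNAs, 5 single values reversed: RPS30B in FLAG-Upf1 CHX RNA (0.01), RPS9A with CHX (-0.467), RPS1B and RPS30A in footprints per RNA (0.47 and 0.334) and RPS6A at 37-43 nt (-0.05).

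Between strains, replicates share only a number: correlations of same-numbered deviations were -0.193 to 0.183 in C RNA (3 of 15 over 0.1), -0.388 to 0.026 in N RNA, -0.041 to 0.043 in C totals and -0.019 to 0.028 in N totals. With the replicate block, RNA of the strain labelled upf2Δ against Upf1-FLAG went from 6 to 2 calls, triple totals from 2 to 1, footprints per RNA of the strain labelled upf2Δ from 1 to 0 and the IP ratio of DE572AA-FLAG against Upf1-FLAG from 0 to 1; no other count moved by over 1.5 times. With no replicate block in the length class models, the counts were 20 (37-43 nt N totals), 6 (N IPs) and 11 (20-23 nt totals).

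Leaving out 1 replicate at a time gave these ranges of called members. In C RNA they were 13 to 31 (Upf1-FLAG), 41 to 43 (DE572AA-FLAG), 37 to 48 (strain labelled upf2Δ), and 7 to 37 and 1 to 30 for the last 2 against Upf1-FLAG. In N RNA they were 10 to 29, 0 to 2 and 0 to 0 (FLAG-Upf1, FLAG-Upf2, FLAG-Upf3 without CHX), 0 to 13, 0 to 0 and 0 to 2 (with CHX), 0 to 6 (triple) and 51 to 55 (CHX against none). In totals, in the same order of strains, they were 5 to 13, 13 to 24 and 6 to 21 in C, 0 to 3, 0 to 6 and 0 to 6 in N without CHX (the highest all called higher, without WT-N replicate 2), 0 to 2, 0 to 0 and 0 to 0 with it, 1 to 2 (triple) and 0 to 15 (CHX against none). For footprints per RNA they were 48 to 48 (WT-C), 0 to 2, 0 to 3 and 0 to 1. For IP in C they were 45 to 48, 40 to 43 and 42 to 50, and 0 to 0 for both differences. For IP in N they were 7 to 17 and 1 to 5 (FLAG-Upf1 without and with CHX), 17 to 23 (triple), 16 to 25 and 15 to 25 (FLAG-Upf2), 22 to 28 and 25 to 26 (FLAG-Upf3), and against FLAG-Upf1 they were 0 to 0 and 0 to 1 without CHX and 0 to 0 and 0 to 2 with it (FLAG-Upf2, FLAG-Upf3). Length class counts ran from 46 to 49 (C IP), 0 to 23 (N total), 0 to 31 (N IP), 15 to 28 and 1 to 10 (20-23 nt total and IP). Pre-mRNA entries called higher ranged from 4 to 4 (Upf1-FLAG), 10 to 13 (DE572AA-FLAG) and 11 to 15 (strain labelled upf2Δ). Where a strain was left with 1 library, that library was assumed to vary like the others.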
